A study of Mus musculus with 6 samples.

Results

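The genes described here are 6 immediate early transcription factor genes, the nuclear receptor genes Nr4a1, Nr4a2 and Nr4a3 and the zinc finger genes Egr1, Egr2 and Egr3, out of 22180 genes measured. They were chosen by name, with earlier results of these data known, so their differences are given as a description of these samples. Where a gene has several array features, the brightest by the mean of the 6 arrays stands for it, but each of the 6 genes had exactly 1 feature (a transcript cluster of the array) and no choice was made. RNA came from cells sorted from mouse skin with antibodies to CD34 and α6-integrin, the surface markers of hair follicle stem cells, from mice at postnatal day 49, and was hybridised to GeneChip Mouse Gene 2.0 ST arrays. There were 3 arrays from K14-sPLA2-IIA transgenic mice (TG) and 3 from wild-type mice (WT), of the same age. Cells of both genotypes were sorted with these antibodies, although Cd34 RNA was uneven between arrays. The comparison asks how expression in the sorted cells differed with the transgene. Keratin 14 promoters are active in the basal layer of the epidermis and in the outer layer of the follicle, where the sorted cells lie, and sPLA2-IIA is a secreted phospholipase A2 that frees fatty acids from membrane phospholipids. The labels name no strain, and they leave unsaid whether animals were pooled or each sample is a separate mouse.

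Immediate early genes are transcribed within minutes of a stimulus without new protein synthesis, and are also induced when tissue is taken apart into cells. The Nr4a proteins are orphan nuclear receptors that act without a known natural ligand and bind the NBRE DNA element as monomers, so their activity is thought to depend largely on how much protein is made. The Egr proteins bind GC-rich DNA through zinc fingers, and their genes are read out from growth factor signals through serum response factor at CArG boxes. In the mouse hair follicle, Egr2 (Krox20) marks cells that give rise to the hair shaft, and in T cells Nr4a1, Egr2 and Egr3 are induced by the antigen receptor.

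The promoters of the Nr4a genes shared a feature that the choice of genes did not use. In a RefSeq table of build GRCm38.p6, 4 of the 6 genes had promoter windows (8 windows in all), and the 250 bases before each transcript start were searched on both strands. The sequences are shown because each of the 3 Nr4a windows held 4 copies of the core of the cAMP response element (CRE), TGACG or CGTCA on the other strand. They are written 5′ to 3′ on the gene's strand, with these CRE cores and, in Egr2, the CArG box in capitals.
Nr4a1, chr15:101266596-101266845, plus strand: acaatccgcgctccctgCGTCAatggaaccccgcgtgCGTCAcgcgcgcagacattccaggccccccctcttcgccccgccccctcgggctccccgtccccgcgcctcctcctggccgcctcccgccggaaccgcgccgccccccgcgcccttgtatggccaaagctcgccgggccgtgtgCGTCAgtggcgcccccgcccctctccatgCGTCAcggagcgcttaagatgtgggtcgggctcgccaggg
Nr4a2, chr2:57124004-57124253, minus strand: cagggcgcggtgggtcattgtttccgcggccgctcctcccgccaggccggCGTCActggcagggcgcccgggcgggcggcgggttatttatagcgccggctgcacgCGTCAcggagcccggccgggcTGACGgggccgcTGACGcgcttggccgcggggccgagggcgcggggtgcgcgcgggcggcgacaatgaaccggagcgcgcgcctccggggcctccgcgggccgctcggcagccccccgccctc
Nr4a3, chr4:48045055-48045304, plus strand: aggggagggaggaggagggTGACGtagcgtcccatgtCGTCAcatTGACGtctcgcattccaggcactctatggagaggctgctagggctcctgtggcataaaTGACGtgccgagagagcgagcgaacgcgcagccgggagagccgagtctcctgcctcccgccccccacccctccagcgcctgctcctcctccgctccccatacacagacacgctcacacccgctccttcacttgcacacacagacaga
Egr2, chr10:67537619-67537868, plus strand: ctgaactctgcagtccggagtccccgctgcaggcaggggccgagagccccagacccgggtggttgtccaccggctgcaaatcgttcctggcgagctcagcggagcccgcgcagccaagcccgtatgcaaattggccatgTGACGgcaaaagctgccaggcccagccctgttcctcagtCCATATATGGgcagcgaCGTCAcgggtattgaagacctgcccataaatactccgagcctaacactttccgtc

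Of all 32851 windows in that table, 17.8% held at least 1 CRE core, 3.9% at least 2, and 0.137% (45 windows) at least 4. The 45 windows include the 3 Nr4a windows. The Egr2 window shown, 1 of 5 listed for that gene and the first of 3 overlapping ones that hold the same most matches, had 2 CRE cores and 1 CArG box, the element bound by serum response factor, which 1.47% of windows held. None of the 3 Nr4a windows had a CArG box in these bases. The palindromic full CRE, TGACGTCA, in which 2 cores overlap, was in 0 of the 8 windows taken for these genes and in 1.55% of all windows. The Nr4a1 window also held 1 Egr site (GCGTGGGCG or GCGGGGGCG, or their complements CGCCCACGC and CGCCCCCGC), a match found in 3.06% of windows. The NBRE (AAAGGTCA) and the AP-1 site (TGANTCA), searched the same way, were in 0 of the 8 windows and in 1.34% and 6.75% of all windows. The windows were rich in G and C, at 74.4% for Nr4a1, 80% for Nr4a2, 63.6% for Nr4a3 and 61.6% for Egr2. The shares over all windows were not matched for G and C content, so they are not a like background. Such matches describe the letters in these windows and do not show binding.

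**Figure D1:**
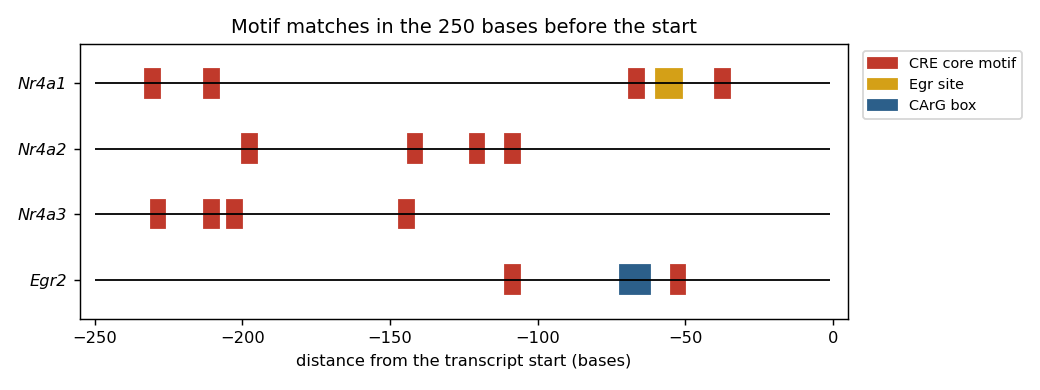
Matches to CRE cores (red), an Egr site (yellow) and a CArG box (blue) in the 250 bases before the transcript start of Nr4a1, Nr4a2, Nr4a3 and Egr2, by distance from the start in bases. Each Nr4a window carries 4 CRE cores, and the Egr2 window carries 2 with the CArG box between them.

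All values are log2 expression values as deposited, and differences are TG minus WT on that scale. The base was inferred from the values, and folds hold only if it is 2. Pla2g2a, the gene of the transgene's enzyme, averaged 12.52 ± 0.12 in TG and 6.14 ± 0.55 in WT (SD, n = 3 each). It was the only gene past the threshold, an adjusted p under 0.05 in limma, which is 0.00451% of genes, and it missed the threshold without TG array 1 and without both arrays numbered 3. The α6-integrin gene Itga6 read 10.005 to 10.49 in TG and 10.14 to 10.48 in WT, and the basal keratin gene Krt14 read 13.85 to 14.24 in TG and 13.80 to 14.22 in WT. Cd34, the other sort marker, was uneven, with 11.57, 9.65 and 12.42 on TG arrays 1 to 3 and 9.78, 9.89 and 13.07 on WT arrays 1 to 3. The arrays numbered 3 thus had more Cd34 RNA than arrays 1 and 2, with array 3 above their mean by 1.81 in TG and 3.23 in WT. Each of the 6 genes is therefore also given without both arrays numbered 3, although Cd34 was still uneven among the other arrays, at 11.57 on TG array 1 and 9.78 on WT array 1. On sorted cells measured in bulk, more cells of a type and more RNA per cell cannot be told apart.

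Nr4a1, also called Nur77, lay higher in TG than in WT cells by the second largest margin of all 22180 genes, after Pla2g2a. It read 12.73, 13.15 and 11.18 on TG arrays 1 to 3, against 10.35, 10.31 and 10.35 on WT arrays 1 to 3. All TG arrays lay above all WT arrays, with a gap of 0.83 between the lowest TG and the highest WT value. The difference was 2.02 ± 0.48 (SE), or 4.06-fold. The WT arrays were nearly level, spanning 0.042, a range smaller than that of all but 0.996% of genes, although WT array 3 was the Cd34-rich one. The TG arrays spanned 1.97, or 3.91-fold, and only 1.92% of genes spanned more in TG. Array by array number, TG exceeded WT by 2.38, 2.84 and 0.83. Without both arrays numbered 3 the difference was 2.61 ± 0.17 (SE).

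Nr4a3, or Nor1, the third receptor of the family, had the next largest difference of the 6 genes. It read 7.40, 8.34 and 7.28 in TG, against 6.37, 6.30 and 6.73 in WT. The genotypes did not overlap, and TG array 2 stood highest. The difference was 1.21 ± 0.30 (SE), or 2.31-fold, the 27th largest of 22180. Without both arrays numbered 3 it was 1.53 ± 0.32 (SE).

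Nr4a2, or Nurr1, known for its role in dopamine neurons, read 8.70, 9.07 and 8.22 in TG, against 7.45, 7.37 and 8.22 in WT. On the arrays numbered 3 the genotypes were level, at 8.224 in TG and 8.216 in WT, so the gap between the groups was only 0.0076. The difference was 0.98 ± 0.30 (SE), or 1.98-fold, and 1.47 ± 0.17 (SE) without both arrays numbered 3. In WT, array 3 lay above the mean of the others by 0.81 for Nr4a2, 0.39 for Nr4a3 and 0.023 for Nr4a1. In TG the same comparison gave -0.66, -0.59 and -1.76, so array 3 was the lowest TG array for all 3 receptors.

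Egr1, a factor induced by growth factors and injury in many tissues, was the most variable of the Egr genes in TG. It read 10.24, 11.31 and 9.25 in TG, against 9.36, 9.64 and 8.42 in WT. TG array 3 lay below WT arrays 1 and 2, so the genotypes overlapped, although within each array number TG was higher, by 0.88, 1.67 and 0.84. The difference was 1.13 ± 0.55 (SE), or 2.19-fold, with a 95% interval from -0.19 to 2.45. It was 0.61 without TG array 2 and 1.28 ± 0.37 (SE) without both arrays numbered 3.

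Egr2 read 10.20, 10.43 and 9.67 in TG, against 10.02, 9.73 and 9.15 in WT. Again the genotypes overlapped and array 3 was lowest in each. The difference was 0.47 ± 0.29 (SE), or 1.38-fold, with a 95% interval from -0.21 to 1.15. Leaving out WT array 3 gave 0.23, leaving out TG array 2 gave 0.30, and 0.44 remained without both arrays numbered 3.

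Egr3 had the smallest difference of the 6 genes, with 9.66, 9.66 and 8.58 in TG and 9.80, 9.26 and 8.43 in WT. Its highest value was on a WT array, and the spread inside each genotype exceeded the difference between them. The difference was 0.14 ± 0.43 (SE), with a 95% interval from 0.542-fold to 2.24-fold, and it changed sign when TG array 1, TG array 2 or WT array 3 was left out (-0.043, -0.041 and -0.22). Without both arrays numbered 3 it was 0.14 ± 0.20 (SE). Array 3 lay below the mean of the other arrays of its genotype by a like amount in each, at -1.08 in TG and -1.09 in WT.

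**Figure D2:**
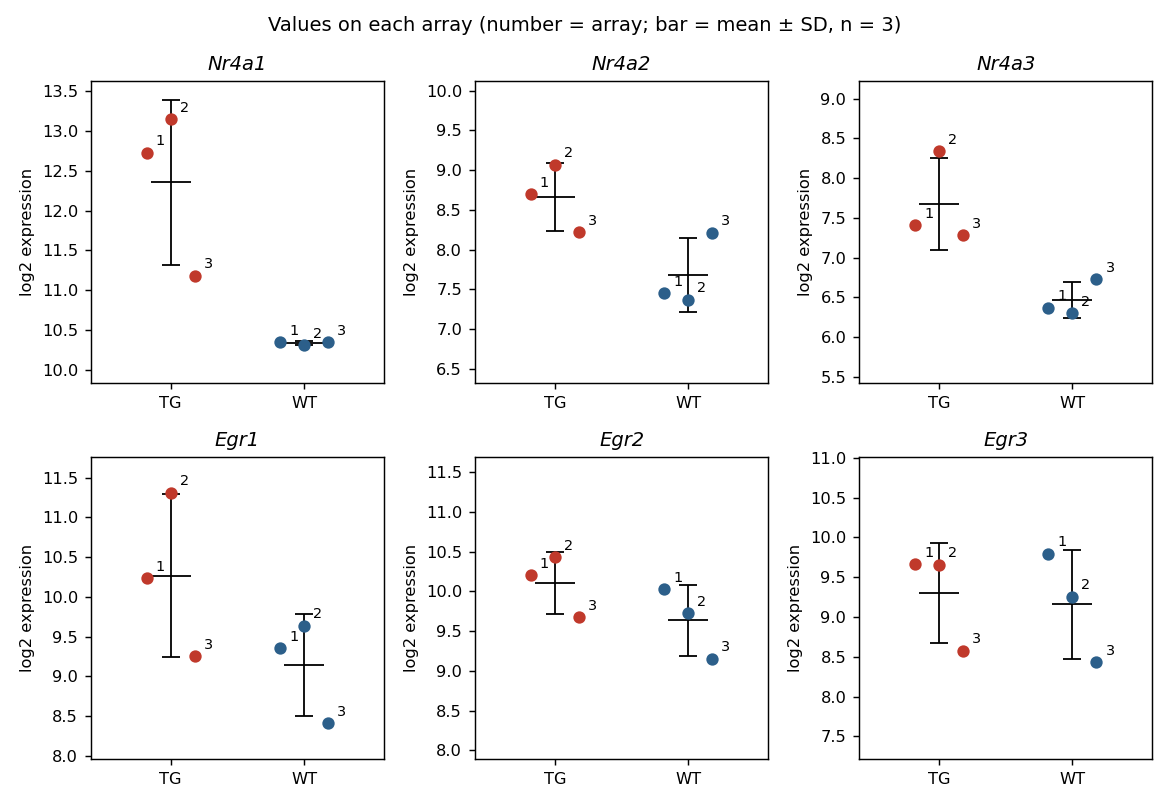
Log2 expression of the 6 genes on each array, with TG left of WT; the number beside a point is the array number, and bars are mean ± SD (n = 3), with each panel spanning the same number of log2 units. The 3 TG points lie above the 3 WT points for Nr4a1, Nr4a2 and Nr4a3, with Nr4a2 nearly touching, and the groups overlap for Egr1, Egr2 and Egr3.

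None of the 6 genes passed the threshold after Benjamini-Hochberg adjustment over all 22180 genes (adjusted p = 0.99996 in limma for each). At an unadjusted p under 0.05, 3 of the 6 were higher in TG, against 1.93% of all genes. The unadjusted p in limma was 0.00417 for Nr4a1, 0.00533 for Nr4a3 and 0.0148 for Nr4a2. It was 0.0817 for Egr1, 0.147 for Egr2 and 0.756 for Egr3. The 3 Nr4a genes were also those without overlap between the genotypes, against 3.99% of all genes with TG wholly above WT. A difference of at least 2-fold was found for 3 of the 6 (Nr4a1, Nr4a3 and Egr1), against 0.252% of all genes. For each of the 3 Nr4a genes the exact permutation test (two-sided) had p = 0.1, the smallest possible with 3 against 3 arrays. With arrays paired by number, 5 of the 6 genes (all but Egr3) had an unadjusted p under 0.05, against 4.59% of all genes, and adjusted p ran from 0.531 to 0.827. TG exceeded WT in all 3 same-numbered pairs for the same number of genes, 5 of 6, against 14.6% of all genes. Without both arrays numbered 3, 5 of 6 had an unadjusted p under 0.05, against 3.32% of all genes, and the lowest adjusted p was 0.215, for Nr4a1, and without TG array 3 alone it was 0.0806.

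**Figure D3:**
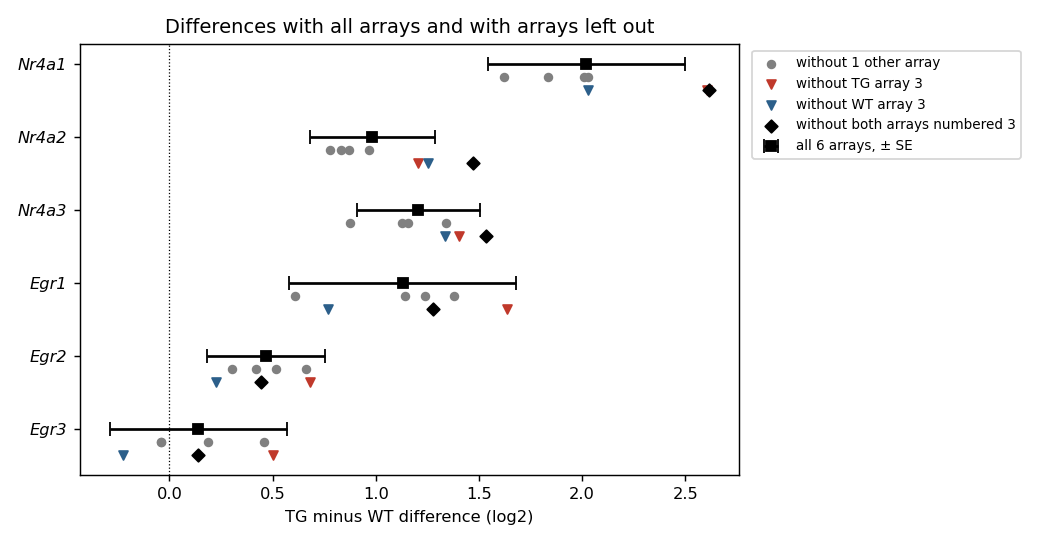
TG minus WT difference (log2) of each gene with all 6 arrays (square, ± SE) and with arrays left out (other symbols). The 3 Nr4a genes, Egr1 and Egr2 keep a difference above 0 in every case shown, and Egr3 lies on both sides of 0.

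By likeness of profile the 6 genes did not fall wholly into their families, although the rank of array 3 did divide them by family. The likeness of 2 genes was measured as the root mean square difference of their log2 profiles over the 6 arrays, each profile taken relative to its own mean, which is small only for genes of like amplitude. By this measure Nr4a2 was the nearest of all 22179 other genes to Nr4a3, at 0.24, and Nr4a3 was the third nearest to Nr4a2. Egr2 and Egr3 were 0.27 apart. Nr4a1 and Egr1, which spanned 7.18-fold and 7.44-fold over the 6 arrays, were 0.62 apart, which is nearer than Nr4a1 and Nr4a2 (0.69). Likewise Nr4a3 and Egr1 (0.59) were nearer than Egr1 and Egr3 (0.65). Nr4a1 and Egr3 were the farthest pair, at 1.05. Array 3 was the lowest array of both genotypes for all 3 Egr genes and for 0 of the 3 Nr4a genes, where 34.5% of all genes had this pattern. The difference between the families in their TG minus WT values was not tested.

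The genes nearest to each factor outside the 6 were partly other stimulus-induced genes. Those nearest to Nr4a1 were Csrnp1, which encodes a nuclear protein, at 0.31, and Hbegf, an EGF receptor ligand, at 0.34. Csrnp1 read 9.74, 9.97 and 8.89 in TG, against 7.56, 7.91 and 7.59 in WT. Nearest to Egr1 were Socs3, a feedback inhibitor of cytokine signalling, at 0.19, and Arc, an activity-induced gene best known in neurons, at 0.25. Arc read 9.95, 10.96 and 8.87 in TG, against 8.59, 8.67 and 7.996 in WT. Bcl2a1a, a survival gene of the Bcl2 family with near-identical copies that the array may not separate, was nearest to Nr4a2 (0.21) and stood second for Nr4a3 (0.26). The next were Irs2, an adaptor of insulin signalling, for Nr4a2 (0.23) and Apol9b for Nr4a3 (0.26). Nearest to Egr2 were Suclg1, a subunit of a citric acid cycle enzyme, and Actg1, a cytoplasmic actin, at 0.085 each. Nearest to Egr3 were Nav3 at 0.075 and Scrn2 at 0.088, and like Egr3 these differed little by genotype, by 0.18 ± 0.43 and 0.11 ± 0.43 (SE). Many genes varied on the scale of Egr2 and Egr3, so a small distance there is less particular.

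**Figure D4:**
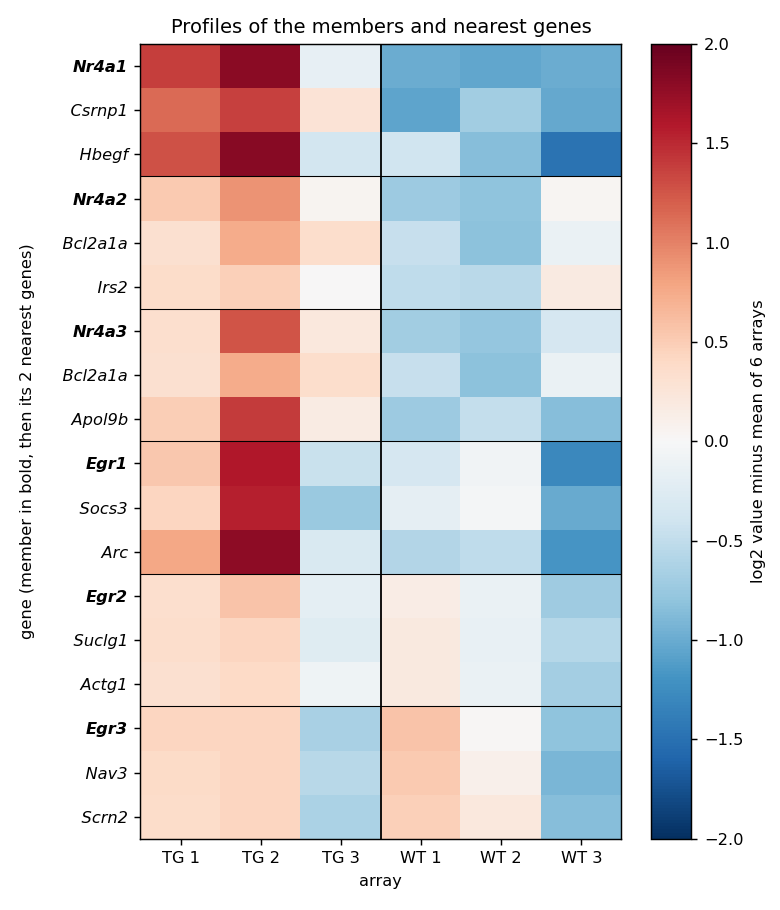
Log2 value minus the gene's mean over the 6 arrays for each factor (bold) and its 2 nearest other genes, with TG arrays left of WT arrays. Nr4a1 and Egr1 are highest on TG array 2, and for Egr1, Egr2 and Egr3 array 3 is the lowest of each genotype.

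The relatives and partners of these factors were close to level between genotypes. Of 7 listed genes, 5 lay above 0, against 47.9% of all genes, 0 passed the threshold in either direction and 0 had an unadjusted p under 0.05 in limma, and the median difference was 0.091, against -0.0075 over all genes. Egr4, the remaining family member, read 6.003, 6.15 and 5.45 in TG and 6.15, 5.56 and 5.34 in WT, a difference of 0.18 ± 0.27 (SE). Nab2, a co-repressor that binds Egr proteins and is itself a target of Egr1, read 10.29, 10.22 and 10.60 in TG, against 10.30, 10.25 and 10.32 in WT, a difference of 0.083 ± 0.14 (SE). Among the RXR genes, whose products can pair with Nr4a1 and Nr4a2, Rxra differed by -0.33 ± 0.29 (SE), Rxrb by 0.13 ± 0.17 and Rxrg by 0.10 ± 0.14.

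Upstream regulators were listed as serum response factor and its partners, CREB and its coactivators, MAP kinases, MEF2 and NFAT. Of the 23 measured of 27 listed, 0 passed in either direction, 0 had an unadjusted p under 0.05, and 12 lay above 0 with a median of 0.019. Nfatc2, of the NFAT family, differed most, by -0.51 ± 0.52 (SE), and Mef2a by -0.36 ± 0.27, both named after their values were seen. Among the 4 genes with the smallest p, Elk4, a partner of serum response factor, differed by 0.35 ± 0.19 (SE), with 8.48, 8.44 and 8.98 in TG and 8.21, 8.46 and 8.19 in WT. Its relative Elk3 differed by 0.26 ± 0.16 and the MAP kinase kinase gene Map2k1 by 0.24 ± 0.15. Mef2d, a regulator of Nr4a1 in T cells, differed by -0.29 ± 0.15. These are RNA levels and do not measure the activity of the proteins.

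Genes known as targets of these factors in various cell types lay on both sides of 0. Of 20 measured Egr targets 0 passed in either direction, and 8 lay above 0 with a median of -0.078, which was 0.050 without TG array 3. Fn1, the fibronectin gene, was the 1 with an unadjusted p under 0.05 and lay lower in TG, where 0.843% of all genes did. It read 8.08, 8.08 and 8.40 in TG and 8.85, 8.78 and 9.24 in WT, a difference of -0.77 ± 0.18 (SE). Its TG arrays lay wholly below its WT arrays, as for 3.21% of all genes. The adhesion receptor gene Cd44 differed by 0.23 ± 0.16, and the myelin genes Mbp and Pmp22, targets of Egr2 in Schwann cells, by -0.47 ± 0.39 and -0.37 ± 0.28. Both were lower in TG within all 3 array numbers, and with the replicate block their SEs were 0.106 and 0.115 (adjusted p = 0.538 and adjusted p = 0.547 in limma).

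Of 14 measured Nr4a targets 0 passed in either direction, 0 had an unadjusted p under 0.05, and 6 lay above 0 with a median of -0.029. Leaving out TG array 2 made that median 0.020, and leaving out WT array 1 made it 0.040. Pdk4, a kinase that restrains pyruvate oxidation, read 7.78, 8.95 and 6.08 in TG, against 6.38, 6.47 and 6.14 in WT. It was highest on TG arrays 1 and 2, while TG array 3 lay below the WT arrays, and the difference was 1.27 ± 0.66 (SE). Irf4, a lymphocyte transcription factor, read 6.18, 6.06 and 5.47 in TG, against 9.001, 8.31 and 5.40 in WT. Only WT arrays 1 and 2 were high for Irf4, and its difference was -1.67 ± 0.88 (SE). Runx1, a follicle stem cell regulator, differed by 0.42 ± 0.26 and Foxp3, the regulatory T cell factor, by -0.26 ± 0.25.

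Other immediate early genes lay mostly on the side of Nr4a1, a direction already known when the list was written. Of 38 measured, 0 passed in either direction, 35 lay above 0, and the median difference was 0.53. With 1 array left out the median ran from 0.27 (without TG array 2) to 0.83 (without TG array 3). At an unadjusted p under 0.05, 11 were higher and 0 lower, against 1.93% and 0.843% of all genes, and 9 had no overlap with TG above WT, against 3.99%. The 4 with the smallest p were Csrnp1, at 1.85 ± 0.29 (SE), Jun, Fosb and Klf2, the last a zinc finger gene with 7.21, 7.27 and 6.997 in TG and 6.67, 6.51 and 6.38 in WT. Not all of the list stood apart. Fos, the partner of Jun in AP-1, differed by 0.53 ± 0.48, Klf4 by -0.035 ± 0.31 and Npas4 by -0.038 ± 0.19. These 3 were chosen after their values were seen. Paired by array number, 21 of the 38 were higher and 0 lower at an unadjusted p under 0.05, against 4.59% and 3.86% of all genes, and 0 passed. The same count under pairing was 0 higher and 1 lower for the relatives, 0 and 2 for the upstream regulators, 0 and 4 for the Egr targets and 2 and 2 for the Nr4a targets, with 0 passed. Without both arrays numbered 3 the median was 0.64 for the other immediate early genes, -0.016 for the relatives, 0.045 for the regulators, -0.15 for the Egr targets and -0.092 for the Nr4a targets. The 6 Nr4a and Egr genes had a median of 1.06, with 1.21 for the receptors and 0.47 for the Egr genes.

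**Figure D5:**
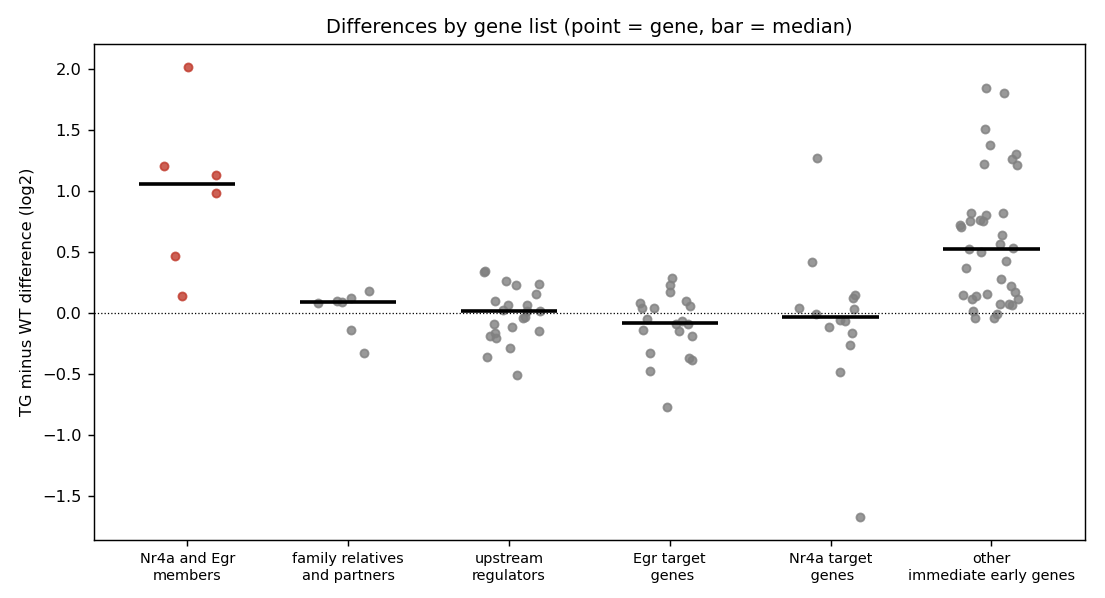
TG minus WT difference (log2) of each measured gene in the 6 Nr4a and Egr genes and the 5 lists of related genes; points are genes and bars are medians. The medians lie at 1.06 for the 6 genes and 0.53 for the other immediate early genes, and between -0.078 and 0.091 for the relatives, regulators and targets.

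Markers of other cells in the sort varied between arrays, and their part in these results was not tested. T cells, which induce these factors on antigen receptor signalling, were represented by 9 measured markers of 12. Of these, 0 lay above 0 in TG minus WT (median -0.24), against 47.9% of all genes, here and for the lists below. This direction hung on single arrays, as the median was 0.24 without TG array 3, 0.084 without WT array 2 and -0.92 without TG array 2. The mean of these markers was 7.99, 9.47 and 7.10 on TG arrays 1 to 3 and 8.67, 9.13 and 7.44 on WT arrays 1 to 3, so, as for Egr1, TG array 2 was the highest of all and array 3 the lowest of its genotype. The markers of Langerhans cells and macrophages and those of sebocytes had this pattern too. The T cell receptor complex gene Cd3e read 9.62, 11.37 and 7.87 in TG, against 10.18, 11.05 and 8.91 in WT. Markers of Langerhans cells and macrophages had a mean of 7.08 to 7.75 in TG and 7.33 to 7.61 in WT, with 3 of 10 above 0. Suprabasal keratinocyte markers averaged 9.89 to 11.94 in TG and 10.32 to 12.07 in WT, with 1 of 10 above 0, and were lowest on array 3 of each genotype. Bulge markers averaged 10.30 to 11.15 in TG and 10.26 to 11.32 in WT, with 11 of 13 above 0 and a median difference of 0.29, which was 0.48 without both arrays numbered 3. That list included the symbols Tcf3 (0.17) and Tcf4 (0.15), which are not the genes of the bulge factors that go by those names. Fibroblast and dermal papilla markers averaged 6.46 to 6.70 in TG and 6.08 to 6.39 in WT, with 6 of 7 above 0, and theirs was the only 1 of the 9 marker lists whose means did not overlap between genotypes. Melanocyte markers averaged 6.97 to 7.46 in TG and 6.79 to 7.64 in WT, and endothelial markers 5.82 to 6.50 in TG and 5.74 to 6.33 in WT. Schwann cell markers averaged 5.61 to 5.88 in TG and 5.51 to 5.95 in WT, and sebocyte markers 6.44 to 7.47 in TG and 6.29 to 7.39 in WT. No marker of the 9 lists passed the threshold in limma. At an unadjusted p under 0.05, 0 were higher and 1 (the macrophage gene Adgre1) was lower, against 1.93% and 0.843% of all genes. Paired by array number, 4 of the 7 fibroblast markers were higher and 1 lower at that p, and 3 of the 10 suprabasal markers were lower. There was also 1 lower marker each for Langerhans cells and macrophages, Schwann cells and sebocytes, with 0 past the adjusted threshold. Of all genes, 4.59% were higher and 3.86% lower at that p under pairing.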

How the data were processed

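Expression was measured on 6 arrays, 3 TG and 3 WT, 1 per sample, grouped by the sample titles. The values are the authors' deposited log2 expression values. That scale is inferred from the range of 2.85 to 14.42 and array medians of 5.90 to 5.99. For the summarisation method and the log base, nothing was given in the sources used here. Per the submitters' processing notes, the software was Transcriptome Analysis Console and Affymetrix Expression Console 1.4.1. Of 41345 features, 23521 had exactly 1 symbol in the platform annotation, 1814 several and 16010 none. The brightest feature stood for each gene, giving 22180 genes, with no filter and no rescaling. No detection value was available, so no gene is called absent, and the number of arrays limits the precision.

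TG was compared with WT by eBayes on lmFit fits with group as the term (limma 3.58.1, R 4.3.3). Tests were two-sided, the Benjamini-Hochberg adjustment ran across the 22180 genes, and 0.05 was the threshold. SE and 95% intervals come from the moderated fit. The p-values set each difference against the spread between these samples, and that spread may be technical. The code of the fit was also run on simulated data with independent noise on each array. Such data lack the variation that the real arrays share, so the run does not show how the fit performs here. Deviations from the genotype means correlated at 0.20, 0.67 and 0.74 between arrays numbered 1, 2 and 3, each over the limit of 0.1, so the arrays were also treated as pairs. This pairing rests on the data alone, and TG array 2 correlated with WT array 1 at 0.50 and TG array 1 with WT array 2 at 0.17.

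The 6 genes and all lists were chosen with earlier results of these data known. Of the 5 lists of related genes, up to 4 members with the smallest p could be named, with 2 nearest genes for each factor by likeness of profile and the sort and transgene markers. Nab2, Nfatc2, Mef2a, Adgre1, Fos, Klf4 and Npas4 were added after their values were seen. Symbols without a 1-symbol feature were not analysed here. Promoter sequences are RefSeq's for GRCm38.p6. Alternatives were each array left out, both arrays numbered 3 left out, the replicate block, quantile normalization, the mean of features, genes above the median level and array weights.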

Additional observations from a re-analysis of the deposited data

How the results depend on the processing

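None of the 6 genes passed the adjusted threshold under any of the alternatives run. Nr4a1, Nr4a2, Nr4a3, Egr1 and Egr2 kept a difference above 0 under all of them. With 1 array left out, the TG minus WT difference ran from 1.62 to 2.61 for Nr4a1, 0.78 to 1.25 for Nr4a2, 0.88 to 1.402 for Nr4a3, 0.61 to 1.64 for Egr1, 0.23 to 0.68 for Egr2 and -0.22 to 0.50 for Egr3. Egr3 was below 0 without TG array 1 (-0.043), TG array 2 (-0.041) or WT array 3 (-0.22). Of genes named beside them, Nav3 was at -0.23 without WT array 3, Scrn2, which ran from -0.29 to 0.45 with 1 array left out, at -0.050, -0.076 and -0.29 without TG array 1, TG array 2 and WT array 3, and Rxrg at -0.024 without both arrays numbered 3 and -0.0063 with array weights. The number of genes past the threshold was 1 with all arrays and 0 to 1 with 1 array left out, being 0 without TG array 1, and 0 without both arrays numbered 3, where fewer arrays entered the fit. With the replicate block the differences were the same, at 2.02 for Nr4a1 and 0.14 for Egr3, and the block changed no call. The SE was larger for Nr4a2 (0.32, against 0.30) and smaller for each of the others, as for Egr1 (0.19) and Egr3 (0.14). Array weights gave the lowest adjusted p of the alternatives on all 6 arrays, 0.149 for Nr4a1, at a difference of 2.39. The number of arrays, not a depth, limits the precision, and no value of signal over background was used.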

Other observations

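Genes other than the 6 were also counted by the copies of the CRE core in their promoter window. Of 36 measured genes with at least 4 copies, 19 lay above 0 in TG minus WT and the median difference was 0.069, against -0.0075 over all genes. None passed the adjusted threshold in limma, and 0 were higher and 1 lower at an unadjusted p under 0.05. With at least 3 copies there were 173 genes, 100 of them above 0, with a median of 0.038. With at least 2 there were 968 genes, 561 of them above 0, with a median of 0.036. These are 58% above 0, against 47.9% of all genes. In that last group 40 (4.13%) were higher and 4 (0.413%) lower at an unadjusted p under 0.05 in limma, against 1.93% and 0.843% of all genes, and 0 passed after adjustment. These counts were made after the promoters had been seen and are given as values. The genes counted all have a promoter window, while the shares over all genes are not limited to genes with a window. No share over all measured genes with a window was computed, so the sets compared are unlike.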
